A study of Mus musculus with 6 samples.

Results

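The secretory pathway and collagen hydroxylase genes described here are 63 of the 24529 genes in an RNA sequencing table of mouse skin mesenchyme. They were chosen by gene symbol alone: the Sec11, Sec13, Sec22, Sec23, Sec24, Sec31, Sec61, Sec62 and Sec63 genes, Pdia, P4h, Plod1 to Plod3, Ssr1 to Ssr4, Spcs, Kdelr and Tmed genes, and the Cop genes of the COPI coat, without symbols containing -ps. The cells came from dorsal skin of CD1 females at postnatal day 16, in early catagen, when the follicle begins to regress. Flow sorting gave dermal sheath (DS) cells, which wrap the hair follicle, dermal papilla (DP) cells, the signalling cell cluster of the follicle bulb, and dermal fibroblasts (DF), the collagen-depositing cells of the dermis. Each population had 2 biological replicates, sequenced without pooling after amplification of RNA from the sorted cells. The labels give no treatment or genotype, and the sources used here state neither the sort markers nor whether a replicate pooled several animals. Values are RPKM, a read density scaled to transcript length and library size. Of the 63 genes, 61 reached 1 RPKM in at least 2 of the 6 libraries and were tested. The exceptions were Tmed6, listed at 0.059 RPKM in DF replicate 2 and at 0 in the other libraries, and Tmed11, listed at 0 in all of them.

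A protein bound for secretion enters the endoplasmic reticulum (ER) through the Sec61 channel, loses its signal peptide to the signal peptidase and is folded with the help of disulfide isomerases. Procollagen chains are in addition hydroxylated on proline, which stabilises the triple helix, and on lysine, which sets the kind of cross-link and carries sugars. COPII-coated carriers, with an inner layer of Sec23 and Sec24 and an outer cage of Sec13 and Sec31, take cargo to the Golgi, while COPI carriers and KDEL receptors return escaped ER residents. In dermal fibroblasts the pathway is known above all for the export of fibrillar collagen.

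Read totals are not stated in the sources at hand. Relative depth, estimated from the most frequent ratio of low values to those of DF replicate 2, was 0.39 and 0.46 in the DS libraries, 0.63 and 0.50 in DP and 0.70 in DF replicate 1, so that low values were least precise in DS. The scale of the libraries also differed: the median log2 difference over the 14664 genes tested was 0.53 in DS against DF, 0.71 in DP against DF and -0.17 in DS against DP. Median-ratio scaling brought these medians to within 0.01 of 0. Calls are therefore given for RPKM as deposited and, beside them, with median-ratio scaling. In their sums the defining markers followed the labels, with single exceptions: the sheath marker Des was lower in DS than in DF (log2 difference -1.19), the papilla marker Corin was higher in DS than in DP (1.30), and of the fibroblast markers Pdgfra was higher in DS than in DF (2.43) and Dpp4 in DP than in DF (1.53, or 0.68 and no call with median-ratio scaling). Summed over 8 sheath markers, such as Acta2, the level was 2565 and 2697 RPKM in the DS libraries, 45.9 and 49.4 in DP and 88.4 and 107.7 in DF. Summed over 9 papilla markers, such as Crabp1, it was 606.7 and 583.7 RPKM in DS, 3928 and 4509 in DP and 72.3 and 115.5 in DF. Summed over 10 fibroblast markers it was 2681 and 2837 RPKM in DS, 1724 and 1700 in DP and 62230 and 55530 in DF. Those markers include Col1a1 and Col3a1, so this sum and the collagen sums below share genes. Among markers of other cells, a summed list of 14 leukocyte genes stood at 20.7 and 10.8 RPKM in DS, 9.30 and 9.34 in DP and 54.4 and 71.6 in DF, with Ptprc below 1 RPKM in all libraries but DP replicate 2 (1.41), and 1 listed gene, C1qb, at 0 in both DP libraries. That list moved with the genes lower in DS and DP below, and its part in those results was not tested. A list of 13 keratinocyte genes was at 89.0 and 228.0 RPKM in DS, 159.3 and 206.0 in DP and 97.5 and 89.0 in DF. Pericyte markers (8 genes, 1 of them at 0 in both DF libraries) summed to 62.5 and 58.0 RPKM in DS, 155.0 and 145.5 in DP and 17.0 and 20.7 in DF, in the order of Plod2. Endothelial markers (11 genes, 0 of them at 0 in both libraries of a population) summed to 30.3 and 8.47 RPKM in DS, 51.9 and 34.9 in DP and 10.8 and 10.1 in DF. The part of either list in the results for genes high in DP was not tested. In bulk libraries fewer cells of a type cannot be told apart from less RNA per cell.

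Among the collagen hydroxylase genes, P4ha2 and Plod2 differed between all 3 populations with both scalings. P4ha3 differed with both scalings between DP and each of the other populations, and was not called in DS against DF. DS and DP expressed less of a small set of transport genes than DF. With both scalings, 7 of the 61 genes were lower in DS than in DF (P4ha2, Sec24d, Sec22b, Copz2, Kdelr2, Kdelr3 and Tmed3) and 7 were lower in DP than in DF (P4ha2, Sec23a, Sec24d, Copz2, Kdelr2, Kdelr3 and Tmed3). Plod2 was higher than in DF in both follicle populations, P4htm in DS and P4ha3 in DP. Both comparisons use the same DF libraries, so the shared names are not independent of each other. With both scalings, 8% of all genes tested were higher and 5.94% lower in DS than in DF, and 9.27% were higher and 6.85% lower in DP than in DF. In DS against DP, Copz2, Tmed3 and P4htm were higher and P4ha2, P4ha3 and Plod2 lower with both scalings, beside 9.35% and 9.73% of all genes. To be called, a gene had to change by 1 or more on the log2 scale with an adjusted p, from limma, under 0.05.

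In RPKM as deposited, 6 members (9.84%) were called higher and 7 (11.5%) lower in DS than in DF, where 20.6% of all genes tested were higher and 5.95% lower, or 26.6% in either direction. In DP against DF, 10 members (16.4%) were higher and 7 (11.5%) lower, beside 31.5% and 6.87% of all genes, or 38.3% in either direction. In DS against DP, 3 members (4.92%) were higher and 3 (4.92%) lower, beside 9.42% and 12.8% of all genes, or 22.2% in either direction. With median-ratio scaling, the counts were 2 higher and 19 lower in DS than in DF (8.04% and 10.2% of all genes), 2 higher and 31 lower in DP than in DF (9.32% and 13.4%), and 6 higher and 3 lower in DS than in DP (11.6% and 9.78%). The median log2 difference of the 61 members was -0.07 for DS minus DF, against 0.53 over all genes, and -0.19 for DP minus DF, against 0.71. For DS minus DP it was 0.16, against -0.17 over all genes. With median-ratio scaling the medians of the members were -0.69, -1.01 and 0.34. Without DF replicate 1, the count higher in DP than in DF was 6 and that higher in DS than in DF was 4, and without DS replicate 1 the count higher in DS than in DF was also 4. Without DS replicate 2, the counts in DS against DP were 2 higher and 2 lower, and without DP replicate 1 the lower count was 2. With 2 libraries a side, 0.333 is the smallest two-sided p of an exact permutation test, so each adjusted p leans on a variance that limma pools over genes and over the 3 populations. Groups without overlap were common in RPKM as deposited. Of all genes tested, 60.7% lay wholly above and 14.3% wholly below in DS against DF. These shares were 67.8% and 14.0% in DP against DF, and 28.2% and 43.6% in DS against DP. Of the 61 members, 24 and 25, 19 and 30, and 26 and 20 did so.

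**Figure D1:**
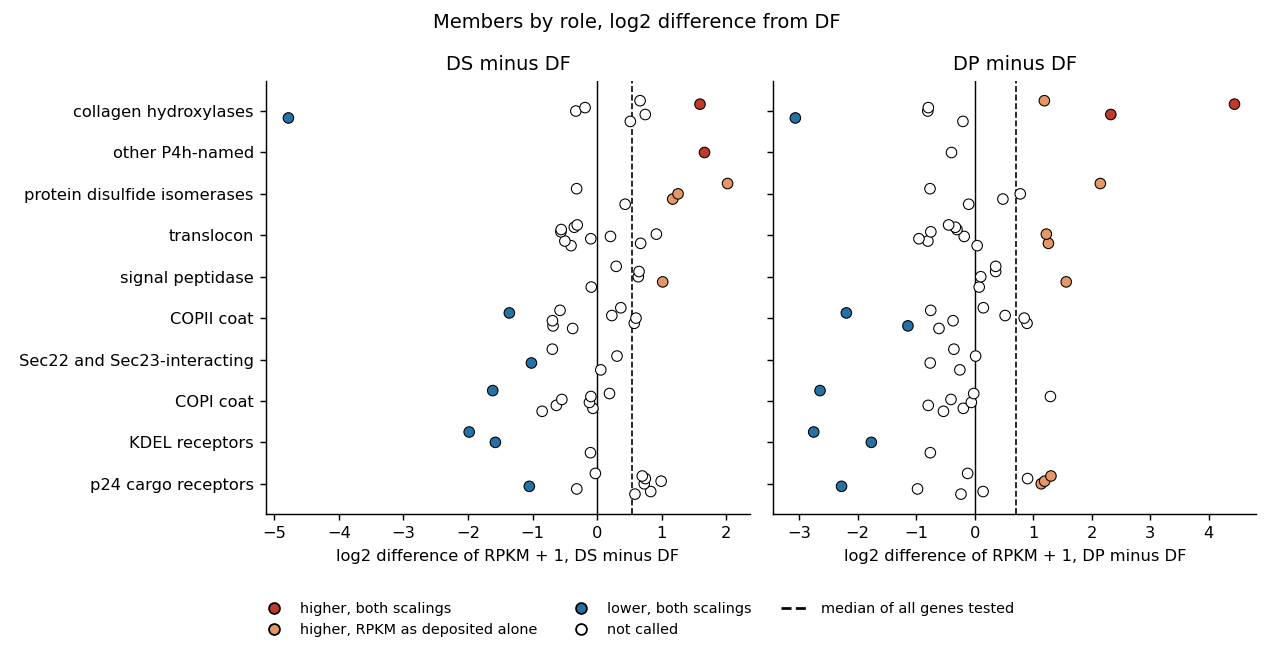
Log2 difference of RPKM + 1 for each tested member, by role, for DS minus DF (left) and DP minus DF (right). Filled points passed the test as coloured in the legend, and the dashed line is the median of all genes tested, at 0.53 on the left and 0.71 on the right. P4ha2 is the lowest point in both panels and Plod2 the highest on the right, at 4.44.

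The catalytic subunit of collagen prolyl 4-hydroxylase differed by population. P4ha2, which encodes 1 of the 3 alternative catalytic alpha subunits, had 6.28 and 7.49 RPKM in the DS libraries, 33.2 and 18.5 in DP and 216.6 and 214.0 in DF. Its groups did not overlap, with DF far above the others and DS at the bottom. The log2 difference was -4.78 for DS minus DF (SE 0.28, adjusted p = 0.000264), -3.06 for DP minus DF (SE 0.28, adjusted p = 0.000839) and -1.72 for DS minus DP (SE 0.28, adjusted p = 0.00742). P4ha3, another alpha subunit, had 3.47 and 2.51 RPKM in DS, 14.5 and 8.07 in DP and 1.32 and 1.41 in DF. It was thus low throughout and highest in both DP libraries. Its log2 difference for DS minus DF was 0.74 in RPKM as deposited and 0.33 with median-ratio scaling, neither of them called. P4ha3 was higher in DP than in DF (log2 difference 2.33, SE 0.31, adjusted p = 0.00271) and lower in DS than in DP by -1.58 (SE 0.31, adjusted p = 0.0143), with values of -1.20 without DP replicate 1 and -1.41 without DS replicate 2, where the call against DP ended. For P4ha1, the most widely expressed alpha subunit, the levels were 31.6 and 32.0 RPKM in DS, 18.2 and 19.8 in DP and 22.5 and 21.5 in DF. P4ha1 had a log2 difference of 0.51 for DS minus DF (adjusted p = 0.0318), below the minimum of 1, which was -0.10 with median-ratio scaling. For DP minus DF it had -0.20 in RPKM as deposited and was called lower after median-ratio scaling, at -1.01 with an adjusted p of 0.00837.

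Within a library the shares of the alpha subunit genes do not depend on the scaling. P4ha1 held 76.4% and 76.2% of the summed RPKM of P4ha1, P4ha2 and P4ha3 in the DS libraries, 27.7% and 42.7% in DP and 9.38% and 9.07% in DF. P4ha2 held 15.2% and 17.8% in DS, 50.4% and 39.9% in DP and 90.1% and 90.3% in DF. P4ha3 held 8.38% and 5.97% in DS, 21.97% and 17.4% in DP and 0.549% and 0.594% in DF. The leading alpha subunit gene was therefore P4ha1 in DS and P4ha2 in DF, while in DP it was P4ha2 in replicate 1 and P4ha1 in replicate 2. The sum of the alpha genes was 41.4 and 42.1 RPKM in DS, 65.9 and 46.5 in DP and 240.4 and 236.9 in DF.

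P4hb encodes the beta subunit of the same enzyme and is itself a protein disulfide isomerase. It had 93.4 and 91.3 RPKM in the DS libraries, 61.7 and 71.3 in DP and 119.8 and 113.0 in DF. The groups were ordered DF, DS, DP without overlap, but no difference reached the fold minimum in RPKM as deposited. With median-ratio scaling P4hb was called lower in DP than in DF (-1.64, adjusted p = 0.00163), against -0.80 as deposited. The alpha genes summed to 0.443 and 0.461 of the P4hb level in DS, 1.07 and 0.652 in DP and 2.01 and 2.10 in DF. P4htm, which encodes a transmembrane prolyl hydroxylase of the ER that is not known as a collagen enzyme, had 9.63 and 18.1 RPKM in DS, 2.71 and 2.16 in DP and 3.11 and 4.02 in DF. Both DS libraries were above all others, though they differed by almost as much as their lower value. P4htm was higher in DS than in DF (log2 difference 1.65, SE 0.33, adjusted p = 0.0119) and higher in DS than in DP by 2.06 (SE 0.33, adjusted p = 0.00682), and the call against DF ended without DF replicate 1, at 1.505.

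**Figure D2:**
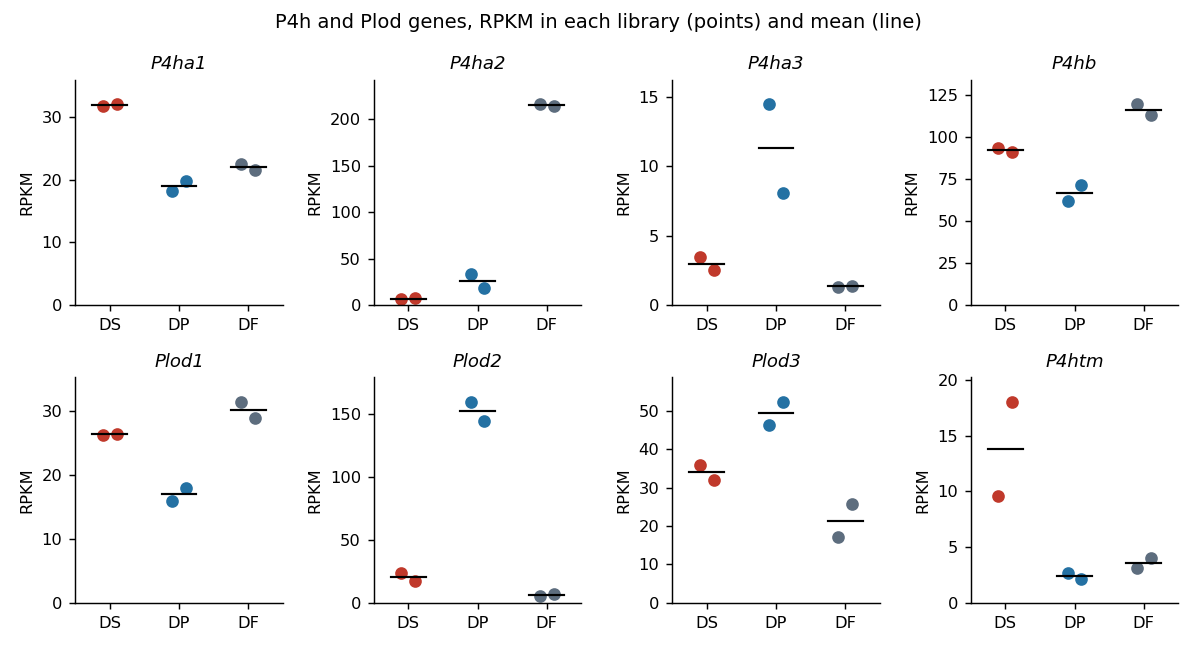
RPKM of the P4h and Plod genes in DS, DP and DF, with a point per library and a line at the mean, each panel on its own linear axis from 0. P4ha2 stands above 200 RPKM in DF alone, and Plod2 stands at 159.7 and 144.1 RPKM in DP, above all other libraries.

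Lysyl hydroxylase genes were divided differently. Plod2, whose enzyme hydroxylates lysines in the telopeptides at the ends of the collagen triple helix, had 23.8 and 17.1 RPKM in DS, 159.7 and 144.1 in DP and 5.21 and 6.97 in DF. The order was DP, DS, DF with no overlap. Plod2 was higher in DP than in DF (log2 difference 4.44, SE 0.22, adjusted p = 0.000181), higher in DS than in DF by 1.59 (SE 0.22, adjusted p = 0.00385) and lower in DS than in DP by -2.85 (SE 0.22, adjusted p = 0.000548). With median-ratio scaling the DS minus DF value was 1.02, close to the minimum. Plod1, which acts on lysines within the helix, had 26.3 and 26.5 RPKM in DS, 16.03 and 18.1 in DP and 31.5 and 28.9 in DF, and was not called in RPKM as deposited, but was lower in DP than in DF with median-ratio scaling (-1.61, adjusted p = 0.00226). Its lowest libraries were those of DP. Plod3, whose protein also adds sugars to hydroxylysine, had 35.9 and 32.0 RPKM in DS, 46.3 and 52.4 in DP and 17.2 and 25.6 in DF. Plod3 was called higher in DP than in DF (log2 difference 1.19, SE 0.22, adjusted p = 0.00705), a call that ended with median-ratio scaling, at 0.37, and without DF replicate 1, at 0.92. Plod3 overlaps Znhit1 on the opposite strand, and the counting is not stated to use strand. Znhit1 had 52.6 and 67.0 RPKM in DS, 42.3 and 59.3 in DP and 18.3 and 22.95 in DF, also lowest in DF. Its part in the Plod3 values was not tested.

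Plod2 held 27.7% and 22.6% of the summed RPKM of the Plod genes in DS, 71.9% and 67.2% in DP and 9.65% and 11.3% in DF. Plod1 held 30.6% and 35.1% in DS, 7.22% and 8.42% in DP and 58.5% and 47.0% in DF. The leading lysyl hydroxylase gene was thus Plod3 in both DS libraries (41.8% and 42.3%), Plod2 in DP and Plod1 in DF. The Plod genes summed to 86.0 and 75.6 RPKM in DS, 222.0 and 214.5 in DP and 54.0 and 61.5 in DF, highest in DP and lowest in DF, while the P4ha sum was highest in DF and lowest in DS.

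**Figure D3:**
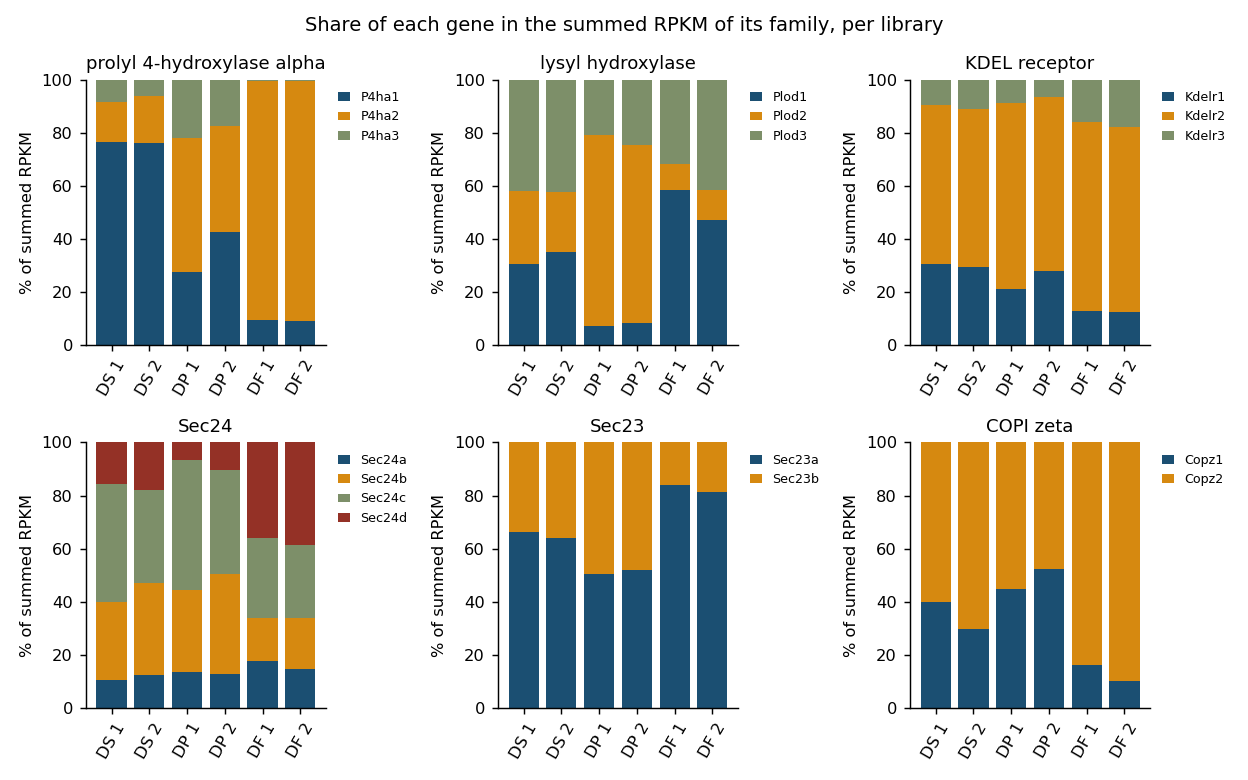
Share of each gene in the summed RPKM of its family in each of the 6 libraries, as stacked bars, for the prolyl 4-hydroxylase alpha, lysyl hydroxylase, KDEL receptor, Sec24, Sec23 and COPI zeta genes. P4ha2 fills about the whole bar in DF, Plod2 leads in DP, and Sec24d and Copz2 take larger shares in DF than in DS or DP.

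In the COPII coat, which forms carriers at the ER, 0 of 9 members were higher in DS than in DF and 1 was lower. In DP against DF, 0 were higher and 2 were lower. The shares of all genes higher and lower were 20.6% and 5.95% in DS and 31.5% and 6.87% in DP. Between DS and DP, 0 of the 9 were called by limma in RPKM as deposited (2 were higher in DS and 0 lower at an unadjusted p under 0.05), while with median-ratio scaling Sec24d was higher in DS. Sec24d, a cargo-binding inner coat subunit required for collagen export in fish, had 30.4 and 37.1 RPKM in DS, 15.04 and 22.5 in DP and 78.8 and 97.8 in DF. No library of DS or DP came near those of DF. Sec24d had a log2 difference of -1.36 for DS minus DF (SE 0.24, adjusted p = 0.00831) and -2.19 for DP minus DF (SE 0.24, adjusted p = 0.00148). Sec23a, its partner in the inner layer, had 21.7 and 19.0 RPKM in DS, 16.2 and 13.1 in DP and 31.5 and 35.2 in DF. Sec23a was lower in DP than in DF (log2 difference -1.14, SE 0.18, adjusted p = 0.00423), a call that ended without DP replicate 2, at -0.997.

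Of the other Sec24 genes, Sec24a had 20.8 and 25.6 RPKM in DS, 29.7 and 28.5 in DP and 38.7 and 37.1 in DF, highest in both DF libraries. Sec24b had 56.5 and 71.1 RPKM in DS, 68.9 and 82.5 in DP and 35.2 and 48.9 in DF, and Sec24c had 86.2 and 71.4 in DS, 107.8 and 86.3 in DP and 65.3 and 68.6 in DF, both without a call. Sec24d held 15.7% and 18.1% of the summed RPKM of the 4 Sec24 genes in DS, 6.79% and 10.2% in DP and 36.1% and 38.8% in DF. Among Sec23 genes, Sec23a held 66.3% and 64.0% in DS, 50.6% and 52.0% in DP and 84.1% and 81.2% in DF. Of the outer cage genes, Sec31a was at 153.0 and 142.0 RPKM in DS, 114.8 and 148.0 in DP and 219.4 and 220.9 in DF, and Sec13 was at 37.6 and 36.8 in DS, 26.5 and 37.7 in DP and 49.4 and 48.1 in DF. With median-ratio scaling, Sec13, Sec24a and Sec31a were called lower in both DS and DP than in DF, as was Sec23a in DS. Sec31b was the lowest member of the group, at 1.46 and 1.05 RPKM in DS, 0.785 and 1.09 in DP and 0.478 and 1.05 in DF. Sec22b, a SNARE of ER to Golgi traffic, had 29.5 and 29.6 RPKM in DS, 32.9 and 38.3 in DP and 62.3 and 59.5 in DF, and was lower in DS than in DF (log2 difference -1.02, SE 0.14, adjusted p = 0.00368), or -0.99 without DF replicate 1, just under the minimum. Sec22a, Sec22c and Sec23ip were not called in RPKM as deposited.

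Promoter windows of 300 bases, 250 before and 50 after the start site, were found for 54 of the 63 genes in the RefSeq table (GRCm38.p6), of which 51 had 1 window. They were searched on both strands for 4 motifs of the unfolded protein response and related factors, since several genes of the set were lower together. The motif TGACGTGG, a core bound by factors such as XBP1 and the CREB3 family, occurred in 5 of the 54 genes (9.26%), against 0.714% of all 27025 genes in the table. Those genes were Sec24d, Sec23a, Kdelr3, Copb1 and Copb2, the first 3 of which were called lower in DP than in DF. Copb1 and Copb2 were called lower in DP with median-ratio scaling alone. Because the lower calls prompted the search, the matches are not independent of them. The share over all genes was not matched for expression or base composition. P4ha2, Copz2 and Tmed3, also called lower in DP than in DF, had no match to any of the 4 motifs. Sec22b, called lower in DS than in DF, had none either, and no window was found for Kdelr2. The longer ERSE motif, CCAAT and CCACG with 9 bases of any kind between them, occurred in Pdia6 alone (1.85% of the 54 genes and 0.137% of all). ERSE-II, ATTGG and CCACG with 1 base between them, occurred in none of the 54 and in 0.0444% of all genes, and the cyclic AMP response element TGACGTCA in Cope alone (1.85% and 2.03%). TGACGTGG and TGACGTCA share the letters TGACGT, and TGACGTGG on its other strand reads CCACGTCA. Of the genes with TGACGTGG, windows are given for Sec24d, Sec23a and Kdelr3, which were called lower in DP than in DF. The window of Pdia6 is given for its ERSE. Copb1 and Copb2 hold TGACGTGG as well, and their windows are not shown. Matches are in capitals. A match is a description of letters and does not show binding.
Sec24d, chr3:123267246-123267545, plus strand: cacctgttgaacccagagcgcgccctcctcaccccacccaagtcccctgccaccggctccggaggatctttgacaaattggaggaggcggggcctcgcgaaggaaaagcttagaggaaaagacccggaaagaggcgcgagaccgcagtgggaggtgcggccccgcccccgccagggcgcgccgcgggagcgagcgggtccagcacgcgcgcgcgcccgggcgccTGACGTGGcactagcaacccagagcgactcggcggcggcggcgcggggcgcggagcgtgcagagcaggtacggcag
Sec23a, chr12:59011968-59012267, minus strand: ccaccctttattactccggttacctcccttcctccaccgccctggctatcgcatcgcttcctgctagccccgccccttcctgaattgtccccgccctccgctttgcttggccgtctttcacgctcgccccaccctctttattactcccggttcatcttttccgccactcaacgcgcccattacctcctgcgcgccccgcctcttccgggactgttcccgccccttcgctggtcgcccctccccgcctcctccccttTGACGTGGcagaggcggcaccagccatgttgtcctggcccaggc
Kdelr3, chr15:79516158-79516457, plus strand: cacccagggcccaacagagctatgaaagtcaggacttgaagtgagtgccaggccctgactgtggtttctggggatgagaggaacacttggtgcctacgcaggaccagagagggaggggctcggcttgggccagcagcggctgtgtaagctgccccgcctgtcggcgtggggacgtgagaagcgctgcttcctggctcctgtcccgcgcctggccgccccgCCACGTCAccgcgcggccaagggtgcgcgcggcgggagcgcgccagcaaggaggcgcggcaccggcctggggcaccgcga
Pdia6, chr12:17266339-17266638, plus strand: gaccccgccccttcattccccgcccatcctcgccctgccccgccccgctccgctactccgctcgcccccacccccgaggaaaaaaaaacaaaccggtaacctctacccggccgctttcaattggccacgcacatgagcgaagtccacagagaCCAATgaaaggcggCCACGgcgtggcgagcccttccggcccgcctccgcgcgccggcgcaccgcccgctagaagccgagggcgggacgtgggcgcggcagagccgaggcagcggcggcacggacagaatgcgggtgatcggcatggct
The TGACGTGG match lay 26 to 19 bases before the start site in Sec24d, 30 to 23 bases before it in Kdelr3 and at bases 7 to 14 counted from it in Sec23a, and the ERSE of Pdia6 98 to 80 bases before it.

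KDEL receptors, which bind the C-terminal KDEL signal of ER residents in the Golgi and return them, were led by Kdelr2 in every library. Kdelr2 had 94.5 and 104.8 RPKM in DS, 84.9 and 89.5 in DP and 330.0 and 270.7 in DF, where it was the highest of all 61 members. Its log2 difference was -1.58 for DS minus DF (SE 0.15, adjusted p = 0.00104) and -1.77 for DP minus DF (SE 0.15, adjusted p = 0.000606). Kdelr3 had 15.3 and 19.7 RPKM in DS, 10.5 and 9.08 in DP and 73.5 and 69.7 in DF. It fell furthest of the 3 receptors, by 1.98 on the log2 scale in DS against DF (SE 0.18, adjusted p = 0.000999) and by 2.75 in DP against DF (SE 0.18, adjusted p = 0.000329). Kdelr3 overlaps Ddx17 on the opposite strand, which had 137.8 and 138.7 RPKM in DS, 255.1 and 220.2 in DP and 80.8 and 102.7 in DF, the reverse order. Kdelr1 had 48.4 and 52.1 RPKM in DS, 25.9 and 38.4 in DP and 59.8 and 48.8 in DF, without a call in RPKM as deposited and lower in DP than in DF with median-ratio scaling (-1.59, adjusted p = 0.0088). Its share of the receptor sum was 30.6% and 29.5% in DS, 21.3% and 28.1% in DP and 12.9% and 12.6% in DF.

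Of the 8 COPI coat members, 1 was called against DF in each follicle population, beside 26.6% of all genes in DS and 38.3% in DP. Copz2, the second form of the zeta subunit, had 55.3 and 85.4 RPKM in DS, 34.3 and 32.3 in DP and 181.8 and 249.9 in DF. The groups did not overlap, and DS lay between DP and DF. Copz2 had a log2 difference of -1.62 for DS minus DF (SE 0.26, adjusted p = 0.00591) and -2.64 for DP minus DF (SE 0.26, adjusted p = 0.00103). It was higher in DS than in DP by 1.03 (SE 0.26, adjusted p = 0.0309), a call that ended without DS replicate 2 (0.72), without DP replicate 2 (0.98) and without DP replicate 1 (1.07). Copz1, the other zeta form, was not called with either scaling, with 36.7 and 36.3 RPKM in DS, 27.9 and 35.5 in DP and 35.5 and 28.5 in DF. Copz2 held 60.2% and 70.2% of the zeta sum in DS, 55.2% and 47.6% in DP and 83.7% and 89.8% in DF. Copg2, a gamma subunit, rested on 1 library, with 26.2 and 16.1 RPKM in DS, 134.2 and 22.7 in DP and 28.7 and 17.0 in DF, and was not called. Mest, which overlaps Copg2 on the opposite strand, had 2.86 and 3.33 RPKM in DP. Copa, Copb2 and Copg1 were lower in DS and DP than in DF with median-ratio scaling, as was Copb1 in DP.

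The p24 proteins, encoded by Tmed genes, cycle between ER and Golgi as cargo receptors. Of 9 tested, 0 were higher and 1 was lower in DS than in DF, beside 20.6% and 5.95% of all genes. In DP against DF, 3 were higher and 1 was lower, beside 31.5% and 6.87% of all genes. After median-ratio scaling the counts were 0 and 1 in DS against DF and 0 and 3 in DP against DF, the 3 being Tmed3, Tmed1 (-1.02, adjusted p = 0.0104) and Tmed2 (-1.81, adjusted p = 0.00133). Of all genes, 8.04% and 10.2% were then higher and lower in DS, and 9.32% and 13.4% in DP. The gene lower with both scalings was Tmed3, with 33.9 and 38.5 RPKM in DS, 13.2 and 16.7 in DP and 79.4 and 72.5 in DF. Its groups were ordered DF, DS, DP with no overlap. Tmed3 had a log2 difference of -2.28 for DP minus DF (SE 0.17, adjusted p = 0.00047) and -1.05 for DS minus DF (SE 0.17, adjusted p = 0.00637), which was just under the minimum without DF replicate 1 (-0.99) and without DS replicate 1 (-0.96). Between DS and DP it was higher in DS by 1.22 (SE 0.17, adjusted p = 0.0043). The genes called higher in DP were Tmed4, with 20.7 and 18.4 RPKM in DS, 27.4 and 25.2 in DP and 10.2 and 12.7 in DF, and Tmed5 and Tmed8, at log2 differences for DP minus DF of 1.14, 1.196 and 1.30. None of these 3 calls held with median-ratio scaling, where the values were 0.34, 0.39 and 0.64, and without DF replicate 1 those of Tmed4 (0.99) and Tmed5 (0.91) ended. Tmed5 overlaps Mtf2 on the opposite strand, at 39.3 and 30.65 RPKM in DP and 11.7 and 23.4 in DF. Tmed8 overlaps Samd15 on the opposite strand, at 133.4 and 91.65 in DP and 35.15 and 63.1 in DF. The part of either gene in these calls was not tested. Tmed10, the highest p24 gene in DS, had 139.0 and 131.3 RPKM in DS, 83.3 and 84.0 in DP and 82.1 and 69.6 in DF, without a call. Tmed3 held 7.80% and 9.004% of the summed RPKM of the 9 genes in DS, 4.12% and 4.74% in DP and 20.1% and 19.5% in DF.

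**Figure D4:**
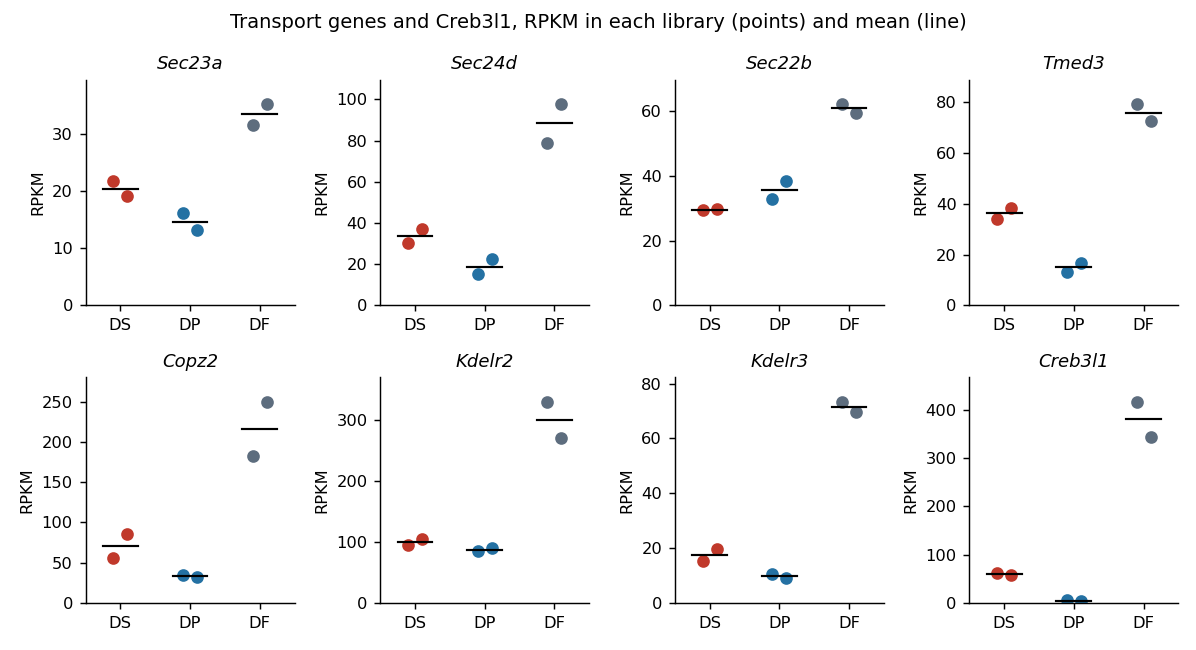
RPKM of 7 transport genes and of the transcription factor gene Creb3l1 in DS, DP and DF, with a point per library and a line at the mean, each panel on its own linear axis from 0. In every panel both DF libraries lie above all 4 libraries of DS and DP.

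At the ER entry, of the 10 translocon members, which build or assist the Sec61 channel, 0 were called by limma in DS against DF (1 was higher and 5 lower at an unadjusted p under 0.05) and 2 were higher in DP than in DF, Sec61a2 and Sec63. These counts stand beside 26.6% of all genes called in DS against DF and 31.5% higher in DP than in DF. Sec63, a co-chaperone of the channel, had 46.8 and 41.8 RPKM in DS, 58.0 and 52.3 in DP and 22.9 and 23.1 in DF. Sec61a2, a second form of the pore, had 29.7 and 38.7 RPKM in DS, 54.9 and 48.2 in DP and 14.5 and 30.1 in DF. Their log2 differences for DP minus DF were 1.22 (SE 0.14, adjusted p = 0.00165) and 1.26 (SE 0.35, adjusted p = 0.0256). Neither call held with median-ratio scaling, at 0.40 for Sec63 and 0.44 for Sec61a2, and that of Sec61a2 ended without DF replicate 1 (0.76), DP replicate 1 (1.17) or DP replicate 2 (1.35). The main pore gene Sec61a1 had 61.8 and 59.5 RPKM in DS, 90.1 and 76.6 in DP and 78.4 and 83.0 in DF, and was lower in DS than in DF with median-ratio scaling alone. Sec61b, the highest of the group in each population, had 120.9 and 138.5 RPKM in DS, 108.8 and 101.4 in DP and 192.6 and 175.0 in DF. With median-ratio scaling 4 of the 10 were lower in DS than in DF, among them Sec61b, and 7 were lower in DP than in DF, including Ssr1 to Ssr4 of the translocon-associated complex. Of all genes, 10.2% and 13.4% were lower there.

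Among 5 signal peptidase members, Sec11c, a catalytic subunit, had 45.7 and 43.9 RPKM in DS, 62.9 and 69.2 in DP and 15.1 and 30.8 in DF. Both DF libraries were lowest, and DF replicate 1 was far below replicate 2. Sec11c was called higher than in DF in DP (log2 difference 1.56, SE 0.32, adjusted p = 0.00978) and at the edge in DS (1.01, SE 0.32, adjusted p = 0.0477). With median-ratio scaling these values were 0.74 and 0.40 and neither was called. The DS call also ended without any 1 of 5 libraries, at 0.53 without DF replicate 1 and from 0.99 to 1.04 without each DS or DP library. Its paralogue Sec11a had 76.2 and 76.8 RPKM in DS, 91.7 and 80.9 in DP and 74.6 and 89.2 in DF, where the DF libraries overlapped those of DS and DP and both DS libraries lay below both of DP.

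Disulfide isomerases, which form and reshuffle disulfide bonds in the ER, gave calls that depended on the scaling. In RPKM as deposited, 3 of 5 were higher in DS than in DF (Pdia3, Pdia4 and Pdia6), 1 was higher in DP than in DF (Pdia6) and 0 were lower. The shares of all genes higher than in DF were 20.6% in DS and 31.5% in DP. Pdia3 had 170.9 and 183.4 RPKM in DS, where it led all 61 members, 109.1 and 110.0 in DP and 78.3 and 78.0 in DF. Pdia4 had 30.9 and 37.7 RPKM in DS, 23.7 and 25.04 in DP and 14.1 and 13.5 in DF. Both genes were highest in DS, and DP lay above DF in RPKM as deposited. With median-ratio scaling the DP minus DF value was -0.36 for Pdia3 and -0.03 for Pdia4, neither of them called. Pdia6 had 24.97 and 15.3 RPKM in DS, 24.8 and 18.6 in DP and 6.42 and 2.48 in DF, with wide replicate spread. The log2 differences for DS minus DF were 1.17 for Pdia3 (SE 0.11, adjusted p = 0.00119), 1.25 for Pdia4 (SE 0.16, adjusted p = 0.00304) and 2.02 for Pdia6 (SE 0.43, adjusted p = 0.0147). For Pdia6 it was 2.15 for DP minus DF (SE 0.43, adjusted p = 0.00915). With median-ratio scaling none of the 3 was called in DS, at 0.54, 0.64 and 1.47, nor Pdia6 in DP, at 1.39, and the DS call of Pdia6 also ended without DS replicate 1, at 1.68. Pdia2 was near the detection limit, at 0.477 and 1.82 RPKM in DS, 0.263 and 0.571 in DP and 0.127 and 1.03 in DF. Pdia5, with 7.85 and 8.30 RPKM in DS, 6.50 and 4.92 in DP and 11.98 and 8.86 in DF, was called lower in DP than in DF with median-ratio scaling alone.

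**Figure D5:**
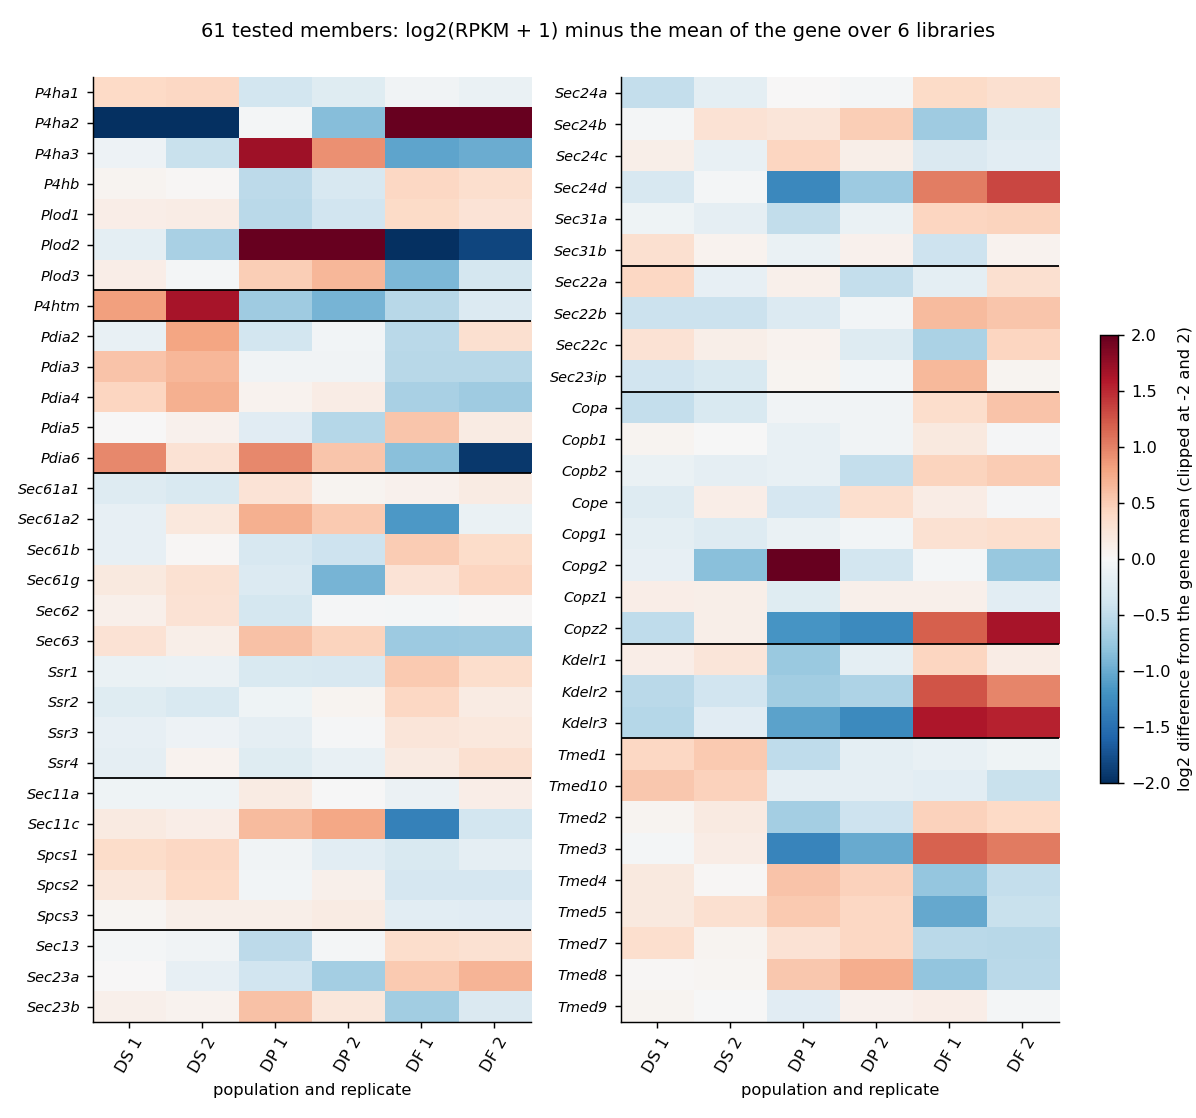
The 61 tested members in rows, grouped by role, and the 6 libraries in columns, coloured by log2(RPKM + 1) minus the mean of the gene over the libraries, clipped at -2 and 2. P4ha2, Sec24d, Copz2, Kdelr2, Kdelr3 and Tmed3 are red in both DF libraries, Plod2 and P4ha3 in both DP libraries, and Copg2 in DP replicate 1 alone.

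Among helpers of procollagen folding outside the set, all calls against DF were on the lower side. Of 12 tested genes for procollagen chaperones and other modifying enzymes, 0 were higher and 4 lower in DS than in DF, 0 were higher and 8 lower in DP than in DF, and 4 were higher and 0 lower in DS than in DP. Their median log2 differences were -0.81, -1.75 and 0.56, against 0.53, 0.71 and -0.17 over all genes. Of 13 tested after median-ratio scaling, the counts were 0 and 7, 0 and 11, and 4 and 0. The shares of all genes lower than in DF were 5.95% in DS and 6.87% in DP as deposited, and 10.2% and 13.4% after median-ratio scaling. As deposited, 9.42% of all genes were higher in DS than in DP. Serpinh1, the collagen-specific chaperone HSP47, had 109.3 and 113.0 RPKM in DS, 96.9 and 121.0 in DP and 585.6 and 378.6 in DF (log2 differences from DF of -2.07 in DS and -2.11 in DP). Fkbp9, a prolyl isomerase of the ER, had 100.3 and 98.4 RPKM in DS, 20.1 and 21.1 in DP and 213.2 and 184.8 in DF, and was lower in DP than in DF by -3.21 (adjusted p = 0.00011) and higher in DS than in DP by 2.22 (adjusted p = 0.000223). Fkbp14 (-1.83) and Fkbp10 (-1.64), both linked to inherited collagen disorders in humans, were lower in DS than in DF as well. Crtap and P3h4, partners of the prolyl 3-hydroxylases, were higher in DS than in DP by 1.41 and 1.75. These named calls held with both scalings.

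Of 20 general ER chaperones in RPKM as deposited, 8 were higher and 0 lower in DS than in DF, 5 were higher and 1 lower in DP than in DF, and 0 were called by limma between DS and DP (5 higher in DS and 0 lower at an unadjusted p under 0.05). The shares of all genes higher and lower were 20.6% and 5.95% in DS and 31.5% and 6.87% in DP. Hspa5, the main ER chaperone BiP, had 405.1 and 483.2 RPKM in DS, 413.3 and 366.7 in DP and 165.1 and 181.7 in DF, with a log2 difference of 1.35 for DS minus DF (adjusted p = 0.00166), or 0.71 and no call with median-ratio scaling. Sdf2l1, a partner of BiP, was higher in DS than in DF with both scalings (1.66, adjusted p = 0.00246, and 1.08). With median-ratio scaling the list held 1 higher and 1 lower gene in DS and 0 higher and 2 lower in DP, the lower gene in RPKM as deposited being the isomerase gene Txndc5 in DP (-1.30). With that scaling, 8.04% and 10.2% of all genes were higher and lower in DS, and 9.32% and 13.4% in DP. The medians for DS and DP minus DF were 0.92 and 0.62 in RPKM as deposited and 0.30 and -0.22 with median-ratio scaling.

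Of 23 genes of the signal recognition particle, the oligosaccharyltransferase and translocon partners, 1 was higher in DS than in DF (Srp14, log2 difference 1.72), 3 were lower in DP than in DF (Ostc, Krtcap2 and Tram1, from -1.70 to -1.15) and 2 were higher in DS than in DP, with no call in the other directions in RPKM as deposited. The shares of all genes in these directions were 20.6%, 6.87% and 9.42%. After median-ratio scaling the counts were 1 and 2 in DS against DF, 0 and 8 in DP against DF, and 3 and 0 in DS against DP. The calls of these named genes against DF held with both scalings, while the DS against DP calls of Srp14 and Ostc ended without DP replicate 1, just under 1 for Srp14 and at 0.67 for Ostc, and that of Ostc also ended without any other library but DP replicate 2. Of 22 genes of COPII assembly and cargo export, 3 were higher and 2 lower in DS than in DF, 4 higher and 4 lower in DP than in DF, and 2 higher and 0 lower in DS than in DP. The 8 of 22 called in DP against DF stand beside 38.3% of all genes, and the 5 called in DS against DF beside 26.6%. Sec16b, a scaffold of ER exit sites, had 2.92 and 1.899 RPKM in DS, 0.845 and 0.577 in DP and 15.8 and 22.2 in DF (-2.55 and -3.53 against DF), and Sar1a, the GTPase that starts the coat, was lower in DP than in DF by -1.24. Of 26 COPI partners, SNAREs and tethers, 2 were higher and 1 lower in DS than in DF, 1 was higher and 2 lower in DP than in DF, and 0 were called by limma between DS and DP (2 higher in DS and 5 lower at an unadjusted p under 0.05). As deposited, 26.6% of all genes were called in DS against DF, 38.3% in DP against DF and 22.2% in DS against DP. No gene of these 2 lists was, with median-ratio scaling, higher in DS or DP than in DF, and 6 and 7 were lower in DS and 10 and 9 in DP. With that scaling, 8.04% of all genes were higher and 10.2% lower in DS than in DF, and 9.32% and 13.4% in DP than in DF.

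Of 10 tested transcription factors and sensors of the secretory and unfolded protein response, 1 was higher and 2 lower in DS than in DF, 3 were higher and 1 lower in DP than in DF, and 2 were higher and 1 lower in DS than in DP. These counts were 0 and 3, 0 and 5, and 3 and 0 after median-ratio scaling. With that scaling, 18.2% of all genes were called in DS against DF, 22.7% in DP against DF and 21.3% in DS against DP. As deposited, 26.6% of all genes were called in DS against DF, 38.3% in DP against DF and 22.2% in DS against DP. Creb3l1, an ER-anchored factor known in mouse osteoblasts for activating type I collagen, had 61.4 and 58.2 RPKM in DS, 5.81 and 3.86 in DP and 417.6 and 343.8 in DF. The 3 populations stood far apart in it. Creb3l1 had a log2 difference of -2.64 for DS minus DF (SE 0.21, adjusted p = 0.000633), -6.05 for DP minus DF (SE 0.21, adjusted p = 8.91e-05) and 3.40 for DS minus DP (SE 0.21, adjusted p = 0.000244). Creb3l2, a relative known in mouse cartilage for activating Sec23a, had 41.1 and 43.0 RPKM in DS, 23.04 and 22.8 in DP and 12.3 and 16.2 in DF, the opposite side from Creb3l1. Creb3l2 was called higher in DS than in DF (1.51, adjusted p = 0.00215), but not with median-ratio scaling (0.90).

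The main fibrillar collagen cargo differed by far more than the machinery. Col1a1, Col1a2 and Col3a1 summed to 1392 and 1314 RPKM in DS, 1259 and 1307 in DP and 75820 and 65530 in DF. The 61 members together summed to 2914 and 3040 RPKM in DS, 2891 and 2881 in DP and 3697 and 3715 in DF. That sum depends on the scaling: Mir6236 alone held 60.1% and 56.7% of all summed RPKM in DS, 57.1% and 46.6% in DP and 77.1% and 74.6% in DF. Of the remaining RPKM the members held 0.460% and 0.471% in DS, 0.461% and 0.458% in DP and 0.739% and 0.689% in DF. Per unit of P4hb, those collagens stood at 14.9 and 14.4 in DS, 20.4 and 18.3 in DP and 632.7 and 579.9 in DF. Per unit of Serpinh1 they stood at 12.7 and 11.6 in DS, 12.99 and 10.8 in DP and 129.5 and 173.1 in DF. Both ratios are taken within a library and do not depend on the scaling between libraries. Of 16 collagen chains tested, 4 were higher and 8 lower in DS than in DF, 4 were higher and 8 lower in DP than in DF, and 5 were higher and 4 lower in DS than in DP. These counts were 3 and 11, 1 and 9, and 6 and 3 after median-ratio scaling. With that scaling, 18.2% of all genes were called in DS against DF, 22.7% in DP against DF and 21.3% in DS against DP. Of all genes, 26.6% were called in DS against DF, 38.3% in DP against DF and 22.2% in DS against DP as deposited. As deposited, Col11a1 and Col12a1 had the largest differences among those higher in DS than in DF, at log2 differences of 6.90 and 5.43.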

How the data were processed

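RNA of sorted DS, DP and DF cells was amplified and sequenced as bulk libraries, per the labels' protocols. The deposited table holds RPKM made by the authors, a column per library; Salmon 1.9.0, DESeq2 1.28.1 and GRCm39 are named without a role or order, per the submitters' processing notes. The annotation, filters, read totals and use of strand are not given in the texts used for this work, so no counting interval is given.

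Members and gene lists were chosen with earlier results of these data known. The 14664 genes that reached 1 RPKM in 2 or more libraries were fitted as log2(RPKM + 1) in limma 3.58.1 (R 4.3.3), with a mean per population over all 6 libraries and a trended eBayes (3 residual and 2.62 prior degrees of freedom), two-sided, with Benjamini-Hochberg adjustment over all genes. The log2 scale with a pseudocount of 1 understates changes of low genes. SE values are from the moderated fit. Named genes were every collagen hydroxylase, per role and comparison up to 4 members called with both scalings, and up to 3 called genes per list; other members are given to complete their role. Values of members described without a call, and overlapping genes, were chosen after their values were seen. Alternatives were median-ratio scaling, the same sum without the 100 highest genes, no filter, a 5 RPKM filter, a pseudocount of 0.1, no trend, a fit of 2 populations, a replicate block, no fold minimum and leaving out each library. The procedure was tested on simulated data. Of 21 members called in any comparison, 9 overlap another gene of the table in GENCODE M21. Promoters are from RefSeq (GRCm38.p6), and no gene coordinates of the files' build are given.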

Additional observations from a re-analysis of the deposited data

How the results depend on the processing

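Counts of members called depended most on scaling and on the fold minimum. With median-ratio scaling 2 members were higher and 19 lower in DS than in DF, 2 higher and 31 lower in DP than in DF, and 6 higher and 3 lower in DS than in DP. With the same sum without the 100 highest genes the counts were 2 and 18, 2 and 23, and 3 and 3. With no fold minimum they were 16 and 16, 16 and 22, and 14 and 3, and with that and median-ratio scaling, an alternative chosen after seeing the data, 3 and 25, 3 and 37, and 17 and 3. Leaving out a library gave from 4 to 8 higher and 5 to 7 lower in DS than in DF, 6 to 12 and 7 to 8 in DP than in DF, and 2 to 3 and 2 to 4 in DS than in DP. No shift shared by replicate number was seen (correlations of deviations between -0.071 and -0.034). This cannot show whether equal replicate numbers came from the same animals or day. A replicate block left 6 and 7, 10 and 7, and 3 and 3. Shares of all genes called were computed only with the fold minimum, for RPKM as deposited and median-ratio scaling, as given above. The counts in the other settings have no such share beside them and cannot be set against all genes. No called member changed sign under any alternative run. Of 147 member differences not called, 27 changed sign with median-ratio scaling and 18 with the same sum without the 100 highest genes, and 0 of these were then called. P4ha1 in DS minus DF was -0.104 and -0.074 in these settings. The cause of these changes was not tested. Depth limits the lowest members, Pdia2 and Sec31b.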
